A study of Mus musculus with 2 samples.

Results

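The Mir26 family of the mouse has 3 loci, Mir26a-1, Mir26a-2 and Mir26b, each inside an intron of a gene for a small C-terminal domain phosphatase: Ctdspl, Ctdsp2 and Ctdsp1. The 3 loci were taken from a table of 1973 microRNA loci by their gene symbols, and no count enters that rule. The small RNA (size class under 30 nucleotides) came from the hindbrain of B6NCrl mouse embryos at day 14.5, with no treatment or genetic change named in the labels. There is 1 group of 2 replicate libraries, from tissue collected on 24 July 2014 (replicate 1) and 30 July 2014 (replicate 2). The labels number the libraries as biological replicates 1 and 2. They also call each sample a single hindbrain in 1 field and a mixture of male and female in another, and give both the same donor. Separate animals are therefore not established, and n and SD describe the spread between these samples only, which may be technical. The binomial p-values set the difference between these samples against counting error.

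MicroRNAs are cut from hairpins in longer transcripts, and the mature strand guides Argonaute proteins to messenger RNAs that pair with its seed, bases 2 to 8 from the 5′ end. The host phosphatases remove phosphates from the C-terminal domain of RNA polymerase II and act with the repressor REST to keep neuronal genes silent outside neurons. In zebrafish, miR-26b, made from an intron of a Ctdsp transcript, represses that host during neurogenesis, so the family is known as a host and microRNA feedback pair.

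The sequences of the mature strands show which reads can be told apart. All 3 loci and their 6 arms matched RefSeq entries (GRCm38.p6) at the annotated hairpins. The 5p arms are given with the seed in capitals; Mir26a-1 and Mir26a-2 encode the same one.
miR-26a-5p: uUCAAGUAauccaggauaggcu
miR-26b-5p: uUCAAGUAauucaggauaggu
The 3p arms, on the other side of the hairpin, differ between all 3 loci, again with bases 2 to 8 in capitals.
miR-26a-1-3p: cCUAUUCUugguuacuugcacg
miR-26a-2-3p: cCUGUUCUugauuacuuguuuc
miR-26b-3p: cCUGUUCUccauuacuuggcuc

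The seed UCAAGUA is common to the 3 loci, and no other mature strand in the RefSeq table carries it. A match over bases 2 to 7 alone brings in Mir6371, which had 0 counts in each library. Counted from the 5′ end, miR-26a-5p and miR-26b-5p differ at C11U and C21U over 21 compared bases, both outside the seed. Among the 3p arms, those of Mir26a-2 and Mir26b have a common seed, CUGUUCU, and differ at 4 of 22 positions (U9C, G10C, U19G and U20C). The 3p arms of Mir26a-1 and Mir26a-2 differ at 6 positions, of which A4G lies in the seed.

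The whole hairpins are shown because the length of the identical stretch decides whether a read can be placed. Capitals mark the annotated mature arms, 5p first.
Mir26a-1: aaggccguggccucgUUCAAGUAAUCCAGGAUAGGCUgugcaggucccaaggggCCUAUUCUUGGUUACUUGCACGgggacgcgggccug
Mir26a-2: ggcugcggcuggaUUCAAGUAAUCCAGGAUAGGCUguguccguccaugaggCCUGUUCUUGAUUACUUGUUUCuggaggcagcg
Mir26b: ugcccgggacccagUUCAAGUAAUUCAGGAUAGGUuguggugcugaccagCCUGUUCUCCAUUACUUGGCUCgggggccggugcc
Mir26a-1 and Mir26a-2 are identical over a run of 25 bases that begins at the first base of the 5p arm and runs 3 bases past its end. The longest run that Mir26b has in common with Mir26a-1 is 11 bases, and with Mir26a-2 it is 10 bases. In the 141767 annotated transcripts, miR-26a-5p occurs exactly in Mir26a-1 and Mir26a-2 and nowhere else, and miR-26b-5p in Mir26b alone. A read of the miR-26a 5p arm that stays inside the run therefore matches both Mir26a loci, whereas a read of either 3p arm or of the miR-26b 5p arm has differences that can place it.

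All 3 hairpins lie on the strand of their host (GRCm38, plus strand). Mir26a-1 (ENSMUSG00000065513) lies at chr9:119031796-119031885 in intron 5 of Ctdspl-201, an intron of 3283 bases. It is 1543 bases from the upstream exon and 1650 bases from the downstream exon. Mir26a-2 (ENSMUSG00000065430) lies at chr10:126995530-126995613 in intron 5 of Ctdsp2-202, an intron of 1946 bases, 1621 bases after the upstream and 241 bases before the downstream exon. Its last base is also the first annotated base of the transcripts Ctdsp2-201 and Ctdsp2-203, so by those models 1 base of the hairpin is exonic. Mir26b (ENSMUSG00000065468) lies at chr1:74394310-74394394 in intron 4 of Ctdsp1-201, an intron of only 564 bases, with 234 bases upstream and 245 bases downstream of it.

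**Figure D1:**
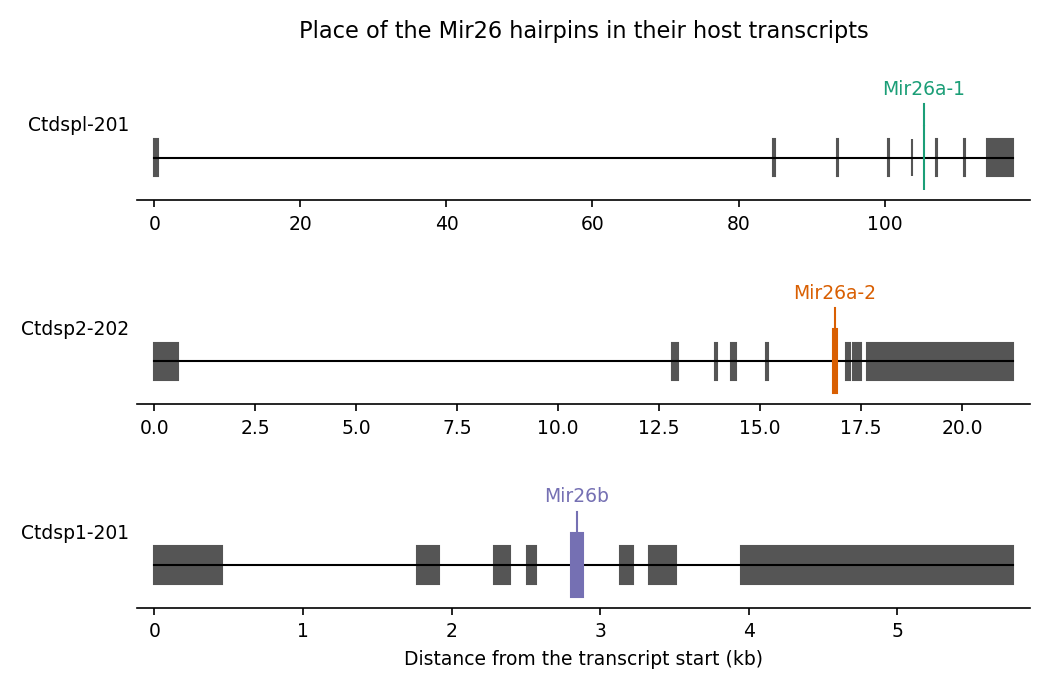
Exons (grey boxes), introns (line) and the Mir26 hairpins (coloured boxes) drawn to scale along the transcripts Ctdspl-201, Ctdsp2-202 and Ctdsp1-201, with distance from the transcript start in kb on each horizontal axis. Each axis has its own scale. Mir26a-1 and Mir26a-2 lie in intron 5 and Mir26b in intron 4.

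The tables hold raw read counts. Replicate 1 had 5826676 counts on the gene strand of microRNA loci and replicate 2 had 6667238, and 401 of the 1973 loci reached 10 counts in both. CPM is the count of a locus per 1000000 of those counts. The hindbrain label was checked with Mir10a and Mir10b, encoded in Hox clusters, which together had 179036 and 140148 CPM. The 9 brain markers with a row summed to 14835 and 16761 CPM, mostly from Mir137. Mir124a-1, Mir124a-2 and Mir124a-3, loci of the neuronal miR-124, were at 7.75, 3.13 and 1.03 CPM. Reads that match several of these loci are counted at none, so the amount of miR-124 was not measured. The same limit holds for Mir9-2 and Mir9-3 (1.52 and 516 CPM), loci of miR-9, and so for the sum of the brain markers. The 11 markers of other cells with a row summed to 38863 and 44231 CPM, mostly from the endothelial Mir126a; of the muscle markers, Mir1a-1 and Mir133a-1 had 0 counts in each library, Mir133a-2 had 0 and 1, and Mir206 had 87 and 108 (15.6 ± 0.896 CPM, SD, n = 2). The part of other cells in the Mir26 levels was not tested. Reads that align to several positions stand in 1 row of the tables and belong to no locus; replicate 1 had 33.9% of its reads there and replicate 2 had 34.3%.

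By reads that could be placed at 1 locus, Mir26b was the abundant member. It had 63997 counts in replicate 1 and 71664 in replicate 2, which is 10983 CPM (95% exact Poisson interval 10898.5 to 11069) and 10749 CPM (10670 to 10828). Its mean level was 10866 ± 166 CPM (SD, n = 2), or 1.098% and 1.075% of all counts on loci. The libraries are close: Mir26b ranked 16 of 1973 in both, and its coefficient of variation was 1.53%. The intervals cover counting error only, and they do not overlap. No molecular identifiers were counted, so they are intervals of reads and not of molecules.

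Mir26a-2 came far below. It had 152 counts in replicate 1 and 183 in replicate 2, which is 26.1 CPM (22.1 to 30.6) and 27.4 CPM (23.6 to 31.7), with a mean of 26.8 ± 0.962 CPM (SD, n = 2). It ranked 273 in both libraries, and the intervals overlap. Mir26a-1 was the lowest, with 45 counts in replicate 1 and 57 in replicate 2. This is 7.72 CPM (5.63 to 10.3) and 8.55 CPM (6.48 to 11.1), a mean of 8.14 ± 0.584 CPM (SD, n = 2), at rank 312 in replicate 1 and rank 311 in replicate 2. By mean CPM, among the 401 loci that reached 10 counts in both libraries, Mir26b lay at the 96.3 percentile, Mir26a-2 at 31.9 and Mir26a-1 at 23.2. The opposite strand of all 3 loci had 0 counts, and the floor that 3 counts set was 0.515 CPM for replicate 1 and 0.450 CPM for replicate 2.

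**Figure D2:**
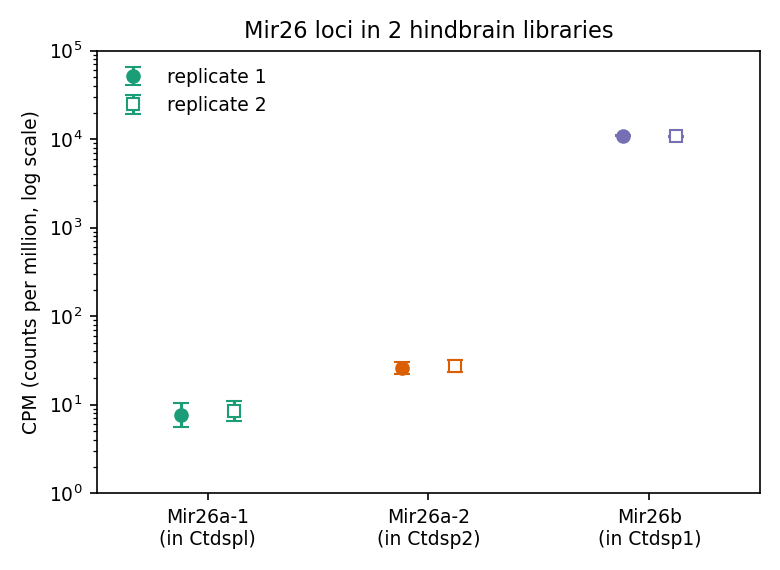
CPM (log scale) of Mir26a-1, Mir26a-2 and Mir26b in replicate 1 (filled circles) and replicate 2 (open squares), with the host gene under each name. Bars are 95% exact Poisson intervals of the count and are shorter than the symbols for Mir26b. The levels of about 8, 27 and 10866 CPM do not overlap between loci. Reads that match both Mir26a loci are counted at neither.

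The order Mir26b, Mir26a-2, Mir26a-1 held in each library, with no overlap of the intervals between neighbours. Mir26b made up 99.7% of the 64194 counts of the family in replicate 1 and 99.7% of the 71904 in replicate 2. Its count was 325 times that of Mir26a-1 and Mir26a-2 together in replicate 1 (95% exact interval 282 to 376) and 299 times in replicate 2 (263 to 340), intervals that overlap. Expressed per base of annotated hairpin (90 bases for Mir26a-1, 84 for Mir26a-2 and 85 for Mir26b), the mean ratio of 312 became 313. Mir26a-2 had 3.38 times the count of Mir26a-1 in replicate 1 (2.41 to 4.82) and 3.21 times in replicate 2 (2.37 to 4.40), so this smaller gap too was larger than counting error and alike in both libraries.

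Which arm the reads of a locus came from is not given in the tables. The 4000369 multimapping reads of replicate 1 were 62.5 times the Mir26b count, and the 4917403 of replicate 2 were 68.6 times. They cover all loci, and their number leaves room for a level of miR-26a-5p below or above that of Mir26b. The counts of Mir26a-1 and Mir26a-2 are thus those of reads that could be placed, and neither the amount of miR-26a-5p nor its ratio to miR-26b-5p was measured. The part that multimapping has in the low counts of the Mir26a loci was not tested.

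The same comparison was made for every mature arm encoded identically by at least 2 loci and accompanied by a paralog with the same seed and an arm of its own. There were 14 such arms with at least 10 counts on each side in each library. In all 14, the summed CPM of the loci with the shared arm was below that of the paralogs in both libraries. Reads that match several loci of a shared arm are counted at none of them. The numbers of loci summed differ, the let-7 and miR-181 arms share paralogs, and the RefSeq table is not complete, so this is a description and not a test. The lowest ratios of shared to own were those of miR-26a-5p (0.00308 in replicate 1 and 0.00335 in replicate 2) and miR-30c-5p (0.00316 and 0.00318), whose order turned between the libraries. Mir30c-1 and Mir30c-2 together had 107 and 101 CPM against 33885 and 31730 CPM for Mir30a, Mir30e and Mir384.

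In 5 of the 14 families the shape is that of Mir26, with 2 loci of the shared arm and 1 paralog. The nearest likeness in layout is the miR-103 and miR-107 family in introns of the pantothenate kinase genes, in which Mir103-1 had 6.22 ± 1.16 CPM, Mir103-2 54.9 ± 0.892 CPM and Mir107 2368 ± 71.8 CPM (SD, n = 2). There the paralog exceeded the sum of the other two by 37.8 times in replicate 1 and 39.7 times in replicate 2. For the miR-196 family of the posterior Hox genes the factor was 9.71 and 6.4, from few counts: Mir196a-1 and Mir196a-2 had 21 and 40 counts together, and Mir196b had 204 and 256. For Mir19b-1 and Mir19b-2 against Mir19a of the miR-17 clusters it was 4.34 and 4.57. For Mir7-1 and Mir7-2 against Mir7b it was only 1.49 and 1.54, with 390 ± 2.51, 248 ± 13.8 and 968 ± 37.7 CPM (SD, n = 2). Of these 5, the Mir26 family had the largest gap in each library, by reads that could be placed. The part that multimapping has in these gaps was not tested.

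**Figure D3:**
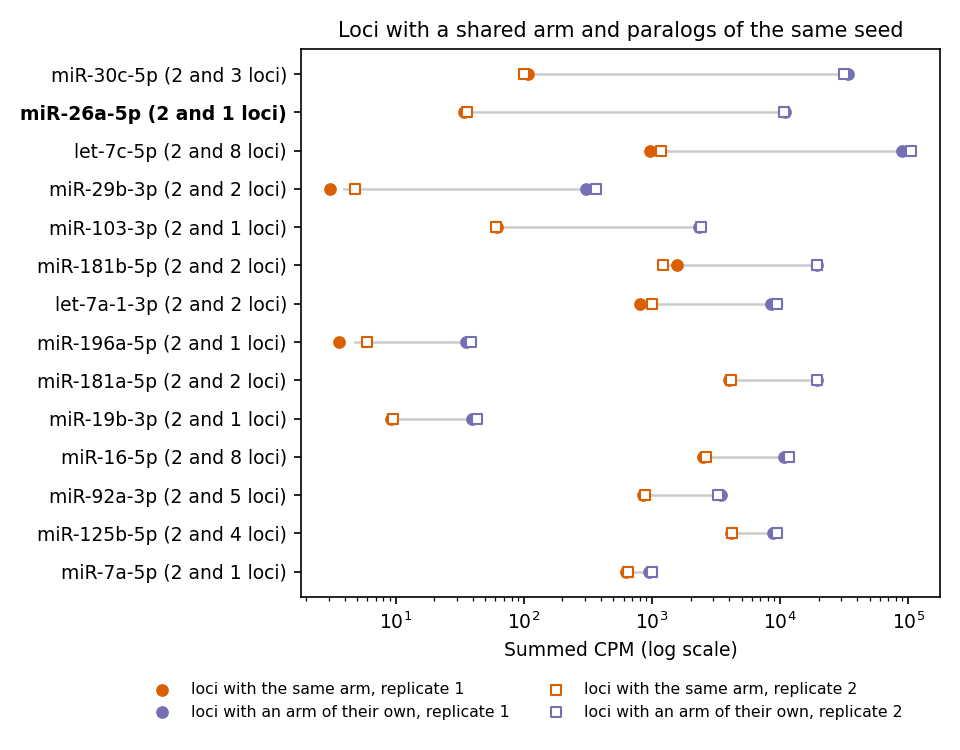
Summed CPM (log scale) of loci that encode the same mature arm (orange) and of paralogs with the same seed and an arm of their own (purple), for 14 arms in replicate 1 (filled circles) and replicate 2 (open squares). Numbers of loci on each side are in brackets, lines join the means, and miR-26a-5p (bold) has 34.9 CPM on the shared side and 10866 CPM on the other. Reads that match several loci of a shared arm are counted at none.

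Levels were also set side by side for all loci with a known arm, expressed or not. Of 916 loci matched to a RefSeq arm, 87 had an arm in common with another locus, and their median level was 3.56 CPM, against 0.632 CPM for the other 829; 28 and 254 of them had 0 counts in each library. When only loci that reached 10 counts in both libraries were kept, the medians were 174 CPM over 48 loci and 139 CPM over 314. Mir26a-1 and Mir26a-2 lay below the first of these medians and Mir26b far above the second.

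Between the libraries, Mir26b was the 1 member of 3 that differed beyond counting error. With TMM scaling in edgeR its log2 ratio of replicate 2 over replicate 1 was -0.07 (95% exact interval -0.09 to -0.06), which is 1.05 times higher in replicate 1 (exact two-sided binomial test with Benjamini-Hochberg adjustment over 498 loci, adjusted p = 5.5e-20). The log2 ratio of Mir26a-2 was 0.03 (-0.29 to 0.35, exact binomial adjusted p = 0.975) and that of Mir26a-1 was 0.10 (-0.49 to 0.70, exact binomial adjusted p = 0.928). Thus 1 of 3 members was called, and it was lower in replicate 2; over all loci tested 32.5% were called, 15.1% as lower, so 1 of 3 is close to the background. With allowance for edgeR's common dispersion, which called 1.41% of loci, 0 of the 3 members were called (0 also at an unadjusted p under 0.05; exact test, unadjusted p = 0.739 for Mir26b). That dispersion was estimated from the difference between these same 2 libraries, so few calls follow from its construction.

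Among the 282 loci that reached 100 counts in both libraries, log2 ratios had an SD of 0.22, and 30.9% of the loci had a smaller absolute ratio than Mir26b. Most of these loci had far fewer counts than Mir26b, at rank 16, and counting error widens their ratios. At a level near that of Mir26b, the log2 ratios of Mir137, Mir30a and Mir181c were 0.09, -0.15 and 0.01. The difference in Mir26b was therefore not shown to be small for its level. The test compares 2 libraries of 1 group, and collection day coincides with replicate. Both hindbrain markers were called lower in replicate 2 (log2 ratio -0.41 for Mir10a and -0.38 for Mir10b). Of 8 tested markers of other cells, 4 were called higher, including the red cell Mir144 (1.09) and Mir451a (0.38), and 0 lower. Of 9 brain markers, 4 were higher and 1 lower, beside 32.5% called over all loci. With the common dispersion, 1 of the other cell markers was called and 0 of the rest. The part of tissue content in the Mir26b ratio was not tested.

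**Figure D4:**
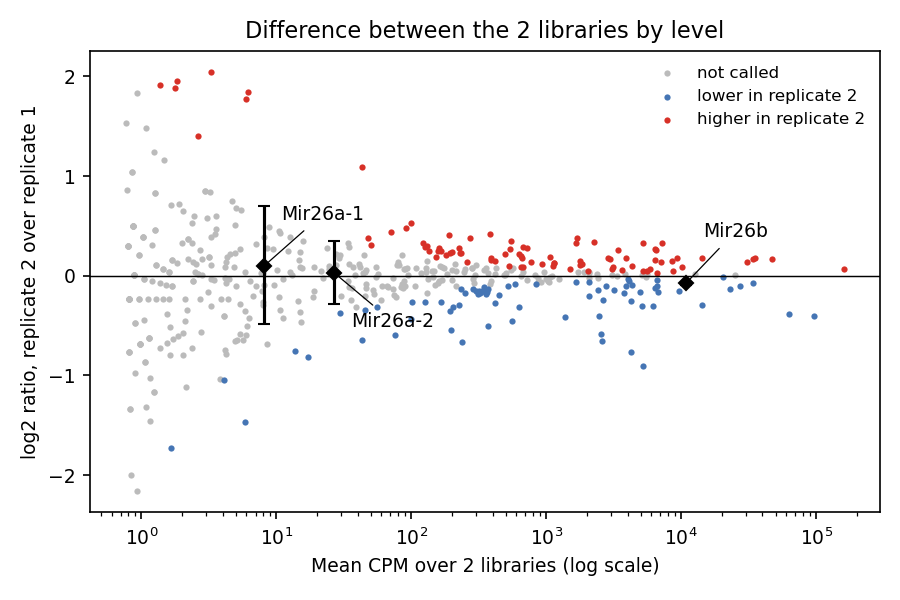
Log2 ratio of replicate 2 over replicate 1 against mean CPM (log scale) for the 498 loci tested (10 or more counts over both libraries); grey points were not called, blue were lower and red higher in replicate 2 by the binomial test. Black diamonds with 95% exact intervals are the Mir26 loci: Mir26b at -0.07 with an interval shorter than the symbol, Mir26a-2 at 0.03 and Mir26a-1 at 0.10.

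Loci most like a member were sought by distance over log2 CPM in the 2 libraries, which rests on 2 values per locus. Nearest to Mir26b were Mir137, a microRNA enriched in neurons, with 9697 and 10645 CPM (distance 0.18), Mir30a with 9916 and 9195 CPM (0.27) and Mir181c with 12356 and 12844 CPM (0.31). They differ in direction: Mir137 was higher in replicate 2, Mir30a was lower like Mir26b, and Mir181c was not called. Nearest to Mir26a-2 were Gm23935 (26.3 and 29.2 CPM), Mir879 (25.2 and 30.3 CPM) and Mir3093 (23.5 and 25.3 CPM), none of which was called. Mir26a-1 had too few counts for this search.

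The REST circuit, which the host phosphatases serve, involves other microRNAs. Of 16 listed, 15 had a row and were tested; 5 were higher in replicate 2, 2 were lower and 8 were not called, beside 87 higher and 75 lower of all 498 loci (32.5% called). The median log2 ratio was 0.03 beside 0.01 over all loci, and with the common dispersion 0 of the 15 were called. Its leading members were Mir135b with 9319 ± 999.6 CPM, the closest to Mir26b in level, Mir139 with 3047 ± 69.0 CPM, Mir153 with 2259 ± 416 CPM and Mir132, a microRNA induced by neuronal activity, with 930 ± 74.9 CPM (SD, n = 2). Mir26b exceeded each of them in both libraries. The list also holds loci of microRNAs made from several loci, such as Mir124a-1 (7.75 CPM), Mir9-3 (516 CPM) and Mir29b-1 (2.18 CPM). Reads that match several such loci are counted at none, so the ranking covers only reads that could be placed. The log2 ratio of Mir26b has the opposite sign to those of Mir135b (0.18), Mir153 (0.33) and Mir132 (0.12), which are among the 5 called higher. It has the same sign as those of Mir9-3 (-0.10) and Mir218-2 (-0.36), the 2 called lower, so the list is mixed.

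Other microRNAs inside host genes, listed mainly for hosts with paralogs, gave a range in which Mir26b is high. Of 29 listed, 28 had a row and 27 were tested; 8 were higher, 6 lower and 13 not called, beside 32.5% called over all loci, and with the common dispersion 0 of the 27 were called. The median level of the tested members was 488 CPM, that of Mir16-2. The list holds loci that share an arm with another locus, unlike Mir26b, among them Mir16-2, Mir30c-1, Mir103-1 and Mir103-2. Reads that match several positions are not in their counts, so the range covers only reads that could be placed. Above Mir26b were Mir30e with 22831 ± 1039 CPM and Mir149 with 14266 ± 1557 CPM; Mir106b with 6610 ± 205 CPM and Mir93 with 6189 ± 791 CPM (SD, n = 2) followed below it. By reads that could be placed, the brain microRNAs Mir128-1 and Mir128-2, in R3hdm1 and Arpp21, had 1781 ± 169 and 1058 ± 121 CPM (SD, n = 2). Both were called higher in replicate 2 by the binomial test alone.

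Seed pairing is best known in 3′ untranslated regions, and the longest annotated one of each host was searched on the transcript strand for TACTTGA, the complement of bases 2 to 8, and for TACTTGAA, the same with an added A, which overlaps it. Ctdsp2 held 1 match to the shorter motif in 3489 bases. It is shown in capitals within the window chr10:126997551-126997573 (GRCm38, plus strand, GENCODE M21).
Ctdsp2 site: cccaagtgttgctctTACTTGAt
The untranslated regions of Ctdspl (3349 bases) and Ctdsp1 (1701 bases) held 0 matches to either motif, and Ctdsp2 held 0 to the longer. Of all untranslated regions within 20% of the length of that of Ctdsp2, 23.1% held the shorter motif; the share was 22.1% for the length of Ctdspl and 10.9% for that of Ctdsp1, and the longer motif was held by 10.9%, 10.4% and 4.25%. A match is a description of letters in these windows, and host transcripts were not measured in these libraries.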

How the data were processed

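Small RNA libraries of 2 hindbrain samples were analysed. The authors deposited raw counts per microRNA locus, for both strands and for each strand; the deposited file lists name the build mm10 and annotation M4. How reads were aligned and assigned is not given in the sources used here. The strand column with 98.0% and 97.8% of counts was used, without the 4 rows of unassigned reads. GENCODE M21, which uses this build too, gave symbols and positions for 1894 of 1973 loci; sequences came from RefSeq (GRCm38.p6), matched by symbol and overlapping position.

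Ratios used TMM scaling and a pseudocount of 0.5; loci with 10 or more counts over both libraries were tested by an exact binomial test with Benjamini-Hochberg adjustment at 0.05, because 2 libraries leave no residual degrees of freedom for a quasi-likelihood fit. The common dispersion corresponds to a coefficient of variation of 10.8%. Intervals are exact at 95% (Poisson for levels, Clopper-Pearson for shares and ratios), and the floor is 3 counts. The chi-square statistic between the libraries was 146 per degree of freedom, so they were kept as separate samples. Scripts were tested on simulated data.

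Members and lists were chosen with earlier results of these data known. Named loci were the members, the 3 nearest loci to each member with at least 100 counts in each library, loci of the same seed, families with a shared arm, and up to 4 leading members of each list, with all Pank and Mir128 loci. Alternatives covered the denominator, strand, scaling, pseudocount, filter, test, definition of a shared arm and each replicate left out. A search of the whole genome for copies of the arms was not done. Scaling and dispersion were computed in R 4.3.3 with edgeR 4.0.16 and DESeq2 1.42.0, tests in scipy 1.17.1, folding with RNAfold 2.7.2, and the rest in Python 3.11.15 with pandas 2.3.3, numpy 2.4.6 and matplotlib 3.10.9.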

Additional observations from a re-analysis of the deposited data

How the results depend on the processing

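Of 68 alternative values, 55 were classed as the same, 12 as moved and 1 as weaker, and none of those run turned a called direction. Log2 ratios were classed by direction and call, and levels by the spread between the libraries. Counts of loci have no such spread. By the binomial test the number called ran from 157 to 173, and the seed family from 3 to 4 loci, all classed as the same. With all reads as the denominator, levels became 3.89 CPM for Mir26a-1, 12.8 for Mir26a-2, 5208 for Mir26b and 5225 for their sum. Counting both strands gave 10638 CPM for Mir26b and 10672 for the sum, against 10866 and 10901. With the common dispersion, the log2 ratio of Mir26b stayed at -0.074 but was not called (exact test, adjusted p = 1), and the number of loci called was 7 in place of 162; that dispersion comes from the same 2 libraries. Calls split into 87 higher and 75 lower with TMM and 114 and 59 with library totals, where the log2 ratio of Mir26b was -0.03 (adjusted p = 0.00028); over the binomial alternatives its adjusted p lay between 8.1e-30 and 0.00028. The median level of loci with a shared arm, 3.56 CPM, was 7.89 with a run of 20 bases in common as the definition, 174 when only loci that reached 10 counts in both libraries were kept, and 7.89 among loci with both arms listed, an alternative chosen after seeing the data; for loci with their own arm, 0.632 CPM became 139 and 2.18 in the last 2. Without replicate 1 or 2, the Mir26b ratio to the Mir26a loci was 299 or 325. No paired analysis was possible because the series has 1 group. Depth limits Mir26a-1 most: with 45 and 57 counts, the interval of its log2 ratio ran from -0.49 to 0.70.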

Other observations

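The hairpins of the Mir26 family fold more stably than most. The minimum free energy from RNAfold was -49.4 kcal/mol for Mir26a-1, -44.5 for Mir26a-2 and -43.5 for Mir26b, against a median of -32 over 1005 RefSeq hairpins. Per base these are -0.549, -0.530 and -0.512 kcal/mol, against a median of -0.406. The GC content of the hairpins was 60% for Mir26a-1, 53.6% for Mir26a-2 and 58.8% for Mir26b, with a median of 51.7% over all hairpins. The order of stability among the members is the reverse of the order of their counts, over only 3 loci. Those counts leave out reads that match both Mir26a loci, and a relation of stability to level was not tested.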
